A study of Mus musculus with 6 samples.

Results

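Collagen chain genes encode the subunits that assemble in threes into the collagen molecules of the extracellular matrix. The group comprised every gene of the deposited expression files whose symbol reads Col, a number, the letter a and a number, with nothing more. This gave 43 of 17464 genes, and all 43 matched a symbol of the RefSeq gene table of GRCm38.p6. By structure they fell into fibrillar chains (11 genes), chains of the basement membrane (9), fibril-associated collagens with interrupted triple helices, called FACIT (9), collagen VI (6), short-chain network collagens (2), transmembrane collagens (4) and others (2).

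Fibrillar collagens form the tensile fibres of connective tissue and are made mainly by fibroblasts, while FACIT collagens sit on the surface of those fibres. Collagen IV forms the sheet that underlies epithelium, endothelium, adipocytes and muscle, and collagens XV and XVIII are attached to that sheet. Collagen VI forms beaded filaments between the basement membrane and the fibres. In the mammary gland, ducts grow within a fibrous sheath inside a fat pad, so that both kinds of matrix are present around the epithelium.

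Expression was measured by RNA sequencing in mammary gland of wild-type C57BL/6 mice at postnatal day 45. The CXCL14 group held 3 samples treated with recombinant mouse CXCL14, a chemokine protein, and the untreated group held 3 samples of the same strain, genotype and age, both numbered 1 to 3 by the submitters. The series title speaks of endothelial cells, whereas the tissue label is mammary gland. The labels state neither dose, route nor duration, nor whether the samples came from separate animals. The p-values below thus reflect variation among these 6 samples only, and that variation may be technical.

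Between 14896092 and 16614051 reads per library could be recovered from the steps of the deposited values, and the depth was similar in all 6 libraries. CXCL14 replicate 1 and untreated replicate 1 were close to each other: their mean chi-square per gene over recovered reads was 2.17, where counting noise alone gives about 1, and it ranged between 21.7 and 80.7 in the remaining 14 pairs. Over the 21 collagen chains that were tested, the ratio of FPKM in CXCL14 replicate 1 to FPKM in untreated replicate 1 lay between 0.890 and 1.14. FPKM counts fragments scaled by gene length and by the size of the library, so levels of different chains can be compared. The label of CXCL14 replicate 1 could not be checked from the data, since no transcript marks that the protein was given, and every comparison of 3 against 3 samples takes that label as it stands. Fold changes without this library are therefore given beside many of the main ones.

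Markers of epithelium were present: summed over 10 luminal markers, FPKM lay between 226 and 291 in CXCL14 libraries and between 112 and 349 in untreated libraries, while 5 basal markers summed to between 2.88 and 5.95 FPKM and between 0.505 and 4.38 FPKM. Lymphoid markers were higher. B cell markers (7 genes) summed to between 1165 and 1399 FPKM in CXCL14 libraries and between 1271 and 1434 FPKM in untreated libraries, and T cell markers (7 genes) to between 414 and 790 FPKM and between 669 and 859 FPKM. Lymph node stroma markers (7 genes) summed to between 313 and 864 FPKM in CXCL14 libraries and between 329 and 862 FPKM in untreated libraries, most of it Glycam1, which the mammary epithelium also makes. Of the fat cell markers, Fabp4, which endothelium also expresses, measured 950, 1808 and 2968 FPKM in the CXCL14 libraries and 880, 1724 and 1874 FPKM in the untreated libraries. Adipoq, which encodes the adipocyte hormone adiponectin, was far lower, at 2.82, 4.58 and 11.2 FPKM in the CXCL14 libraries and 1.89, 5.603 and 5.05 FPKM in the untreated libraries. The part of lymphoid tissue in the collagen values was not tested.

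Promoter sequences of 4 chains are shown because they belong to chains with a wide range between libraries (Col1a2 and Col3a1) and to a pair of neighbouring genes whose levels kept a nearly fixed ratio (Col4a1 and Col4a2). Each is the RefSeq window of GRCm38.p6 from 250 bases before to 50 after the annotated start, printed 5′ to 3′ on the strand of the gene. Capitals mark matches, on either strand, to the CCAAT box, to the GC box GGGCGG and to the TATA box TATAAA. No match overlapped another in these windows.
Col1a2, chr6:4505368-4505667, plus strand: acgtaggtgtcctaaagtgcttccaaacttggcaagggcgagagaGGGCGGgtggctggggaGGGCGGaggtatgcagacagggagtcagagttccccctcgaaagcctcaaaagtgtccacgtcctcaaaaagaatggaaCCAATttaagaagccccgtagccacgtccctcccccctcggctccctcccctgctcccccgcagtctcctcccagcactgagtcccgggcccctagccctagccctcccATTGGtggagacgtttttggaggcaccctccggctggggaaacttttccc
Col3a1, chr1:45311288-45311587, plus strand: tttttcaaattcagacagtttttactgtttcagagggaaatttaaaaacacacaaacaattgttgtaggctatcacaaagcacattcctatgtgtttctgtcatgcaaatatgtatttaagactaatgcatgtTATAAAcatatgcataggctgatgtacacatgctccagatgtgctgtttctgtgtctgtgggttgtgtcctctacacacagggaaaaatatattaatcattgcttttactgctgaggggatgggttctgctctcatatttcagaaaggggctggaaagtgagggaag
Col4a1, chr8:11312777-11313076, minus strand: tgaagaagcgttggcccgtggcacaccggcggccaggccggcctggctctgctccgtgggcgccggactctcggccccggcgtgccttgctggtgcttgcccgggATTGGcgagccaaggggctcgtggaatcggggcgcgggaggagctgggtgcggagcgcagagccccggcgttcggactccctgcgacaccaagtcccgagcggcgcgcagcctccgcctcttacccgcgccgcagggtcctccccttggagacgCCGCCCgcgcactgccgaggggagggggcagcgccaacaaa
Col4a2, chr8:11312555-11312854, plus strand: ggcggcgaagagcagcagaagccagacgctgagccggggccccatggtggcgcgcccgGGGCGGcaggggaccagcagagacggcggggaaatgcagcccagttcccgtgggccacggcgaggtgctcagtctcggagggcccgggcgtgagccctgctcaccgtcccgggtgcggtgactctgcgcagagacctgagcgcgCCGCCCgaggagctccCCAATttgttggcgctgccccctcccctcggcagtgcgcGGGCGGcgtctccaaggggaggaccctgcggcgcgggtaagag

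The Col4a1 and Col4a2 genes run in opposite directions from a shared region. Their windows overlapped by 78 bases, the same stretch of chromosome 8 read on opposite strands, and their annotated starts lay 21 bases apart. The Col1a2 window held 2 CCAAT and 2 GC boxes. The Col3a1 window held a TATA box and neither of the other motifs. The Col4a1 window held 1 CCAAT and 1 GC box, and the Col4a2 window 1 and 3. A window was found for 18 of the 21 tested chains, and 7 of these 18 had a CCAAT match, 12 a GC box and 2 a TATA box in at least 1 window. Over all 32851 windows of the table the shares were 37.4%, 35.7% and 13.6%. These matches describe the letters of the windows and are no sign of binding.

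Collagen transcripts differed more between libraries of one group than between the groups. The FPKM summed over all 43 chains was 685, 227 and 378 in CXCL14 replicates 1, 2 and 3, and 716, 875 and 238 in untreated replicates 1, 2 and 3. CXCL14 replicate 1 and untreated replicates 1 and 2 were high, and CXCL14 replicates 2 and 3 and untreated replicate 3 were low, so that the groups overlapped. The class that varied most was the fibrillar one, with sums of 456, 45.8 and 63.7 FPKM in the CXCL14 libraries and 481, 455 and 51.8 FPKM in the untreated libraries. Basement membrane chains summed to 143, 153 and 269 FPKM in the CXCL14 libraries and to 145, 310 and 162 FPKM in the untreated libraries, and their highest sums were in CXCL14 replicate 3 and untreated replicate 2.

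**Figure D1:**
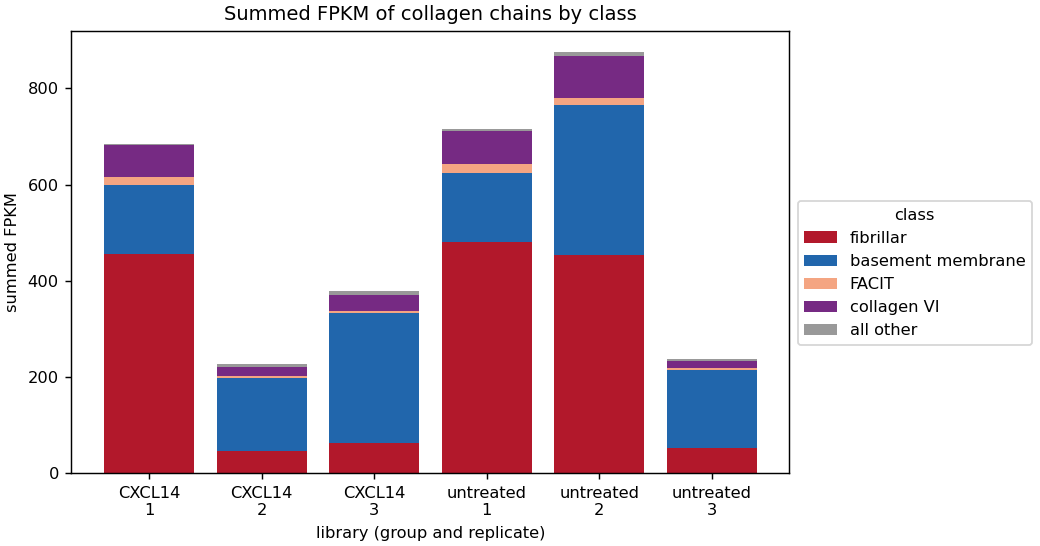
Summed FPKM of the 43 collagen chains in each of the 6 libraries, CXCL14 on the left and untreated on the right, with 1 colour per class. Fibrillar chains held 66.5% of the sum in CXCL14 replicate 1 and 67.1% in untreated replicate 1, but 21.8% in untreated replicate 3.

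The make-up of the collagen pool did not separate the groups. Fibrillar chains held 66.5%, 20.2% and 16.9% of the summed collagen FPKM in the CXCL14 libraries, and 67.1%, 51.9% and 21.8% in the untreated libraries. The mean share was 34.5 ± 27.8% with CXCL14 and 47.0 ± 23.1% without (SD, n = 3 each). The difference was -12.4 percentage points (exact two-sided permutation test, p = 0.5, adjusted p = 1 over the 5 shares compared). It was -28.4 points without CXCL14 replicate 1, -25.0 without untreated replicate 3 and -2.35 without untreated replicate 1. Basement membrane chains held 20.9%, 67.5% and 71.2% in the CXCL14 libraries and 20.2%, 35.5% and 68.3% in the untreated libraries. Their mean share was 53.2 ± 28.1% with CXCL14 and 41.3 ± 24.6% without (exact permutation p = 0.7, adjusted p = 1), and the difference ranged between 1.32 and 28.1 points when 1 library was left out. FACIT chains made up between 1.11% and 2.46% in the CXCL14 libraries and between 1.68% and 2.42% in the untreated libraries, and collagen VI between 8.27% and 9.58% and between 6.55% and 10.1%. With 3 samples against 3 the smallest p this test allows is 0.1.

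Across genes, limma-trend on log2(FPKM + 1) compared the groups for the 11516 genes that reached 1 FPKM in 3 or more libraries, which kept 21 of the 43 chains. At an adjusted p under 0.05, 0 of the 21 chains were called higher or lower in CXCL14 samples, and 0% of all tested genes were called. At an unadjusted p under 0.05 there were 0 chains, beside 7.77% of all genes, and voom on recovered reads also called 0 chains. Of the 21, 17 had a log2 fold change below 0, beside 62.8% of all tested genes, and the median was -0.21, beside -0.06 over all genes. Groups overlapped for all 21 chains, whereas they did not overlap for 13.1% of tested genes (4.74% higher and 8.36% lower in CXCL14 samples). Without CXCL14 replicate 1, limma-trend called 2.16% of all genes higher and 3.02% lower (5.18% in all) but still 0 of the 21 chains. In that fit 0 chains had an unadjusted p under 0.05, beside 29.3% of all genes, and 17 of 21 log2 fold changes were below 0, beside 63.3% of all genes, with a median of -0.49 over the chains. Without untreated replicate 3 the median was -0.54, with 0% of all genes called. Without both libraries numbered 1 it was -0.30, with 0.122% of all genes called higher and 0.00868% lower (0.130% in all). Both fits called 0 chains.

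**Figure D2:**
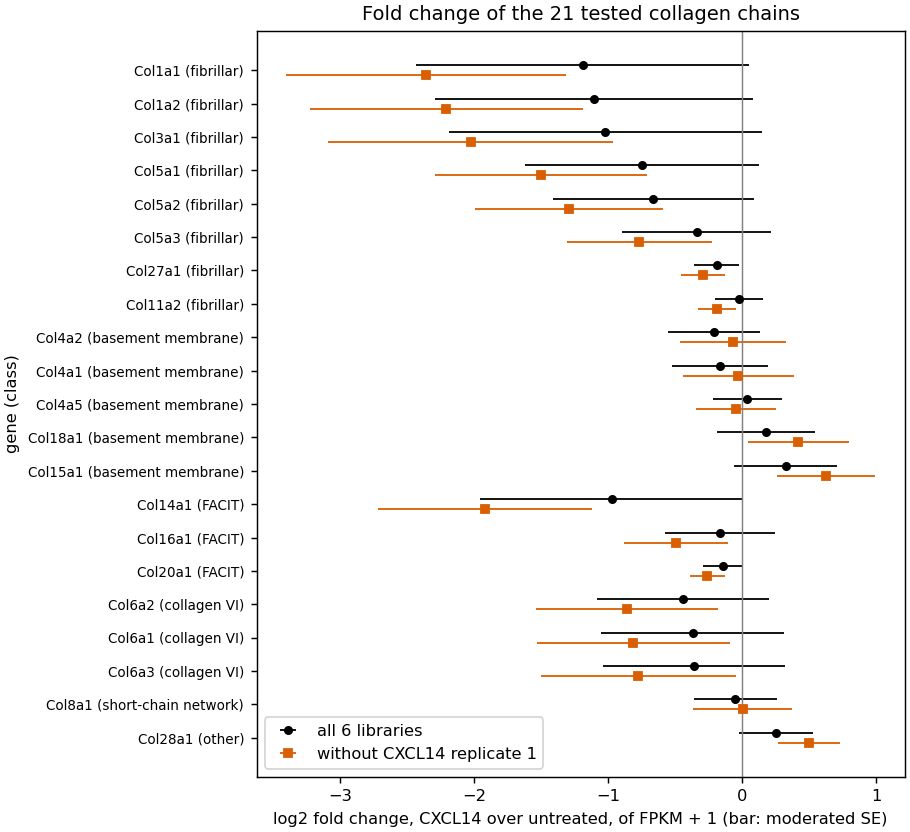
Log2 fold change of the 21 tested chains, CXCL14 over untreated, on the log2(FPKM + 1) scale, with the moderated SE as a bar, for all 6 libraries (black) and without CXCL14 replicate 1 (orange). The most negative value is that of Col1a1, at -1.19 with all libraries and -2.35 without CXCL14 replicate 1, and no chain passed the test in either fit.

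The same libraries were high for most of the chains. For 14 of the 21 (66.7%) the 3 highest values were those of CXCL14 replicate 1 and untreated replicates 1 and 2, beside 17.4% of all tested genes. These were 7 of 8 fibrillar, 3 of 3 FACIT, 3 of 3 collagen VI and 1 of 5 basement membrane chains. Col14a1, Col16a1 and Col27a1 reached 1 FPKM only in those 3 libraries, so the filter itself fixed their place in this count. For the other 4 basement membrane chains and for Col8a1 the 2 highest values were those of CXCL14 replicate 3 and untreated replicate 2, 5 of 21 chains in all (23.8%), beside 1725 of 11516 tested genes. The highest FPKM was at least 5 times the lowest for 10 of the 21 chains (47.6%), beside 3.24% of all tested genes.

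**Figure D3:**
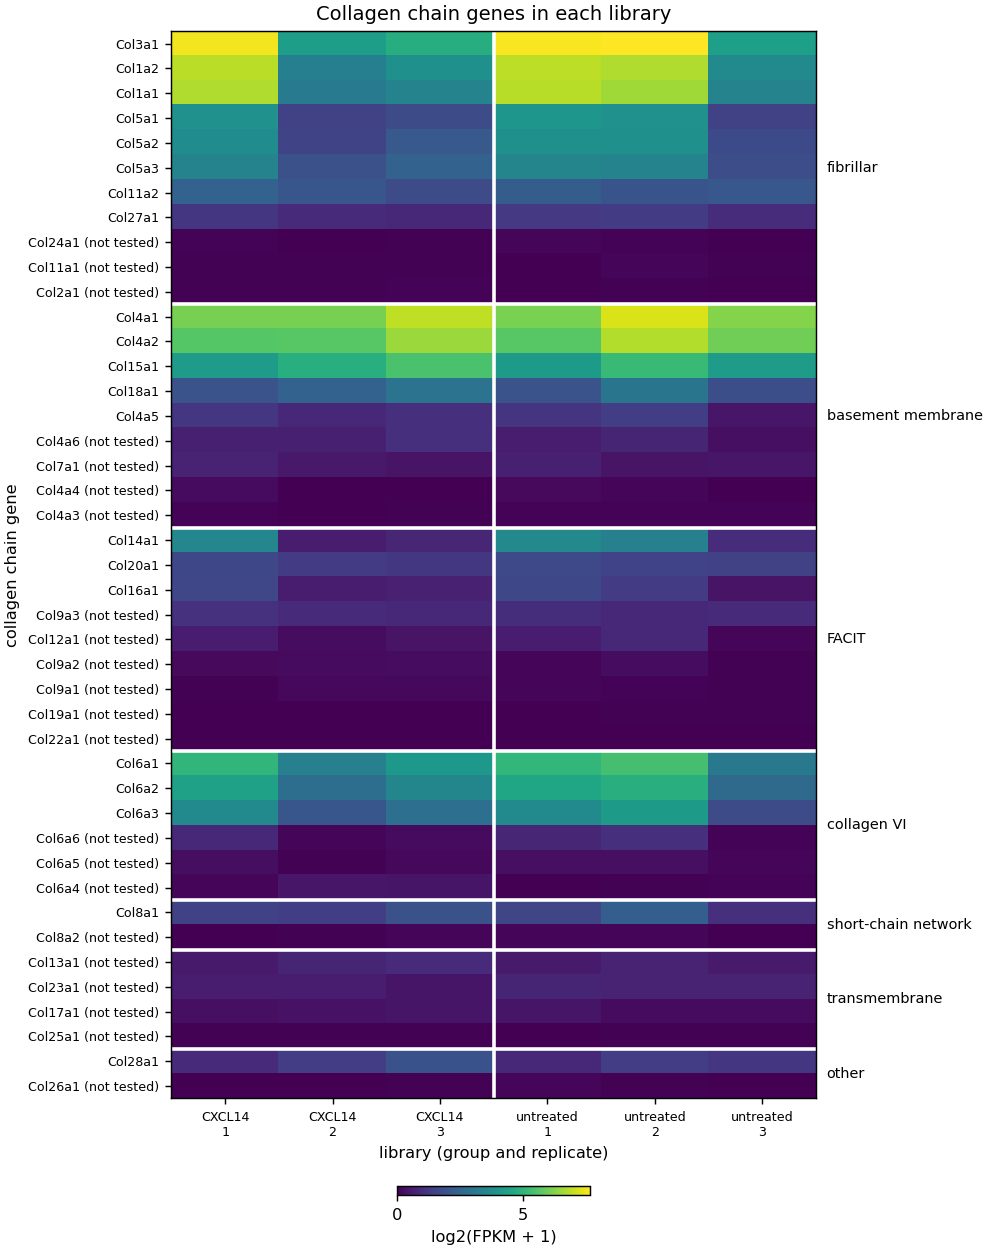
Level of all 43 chains, as log2(FPKM + 1), in each library, with CXCL14 libraries left of the white line and untreated libraries right of it, and chains grouped by class and ordered by mean FPKM. The rows of Col1a1, Col1a2, Col3a1, Col5a1, Col5a2 and Col5a3 are brightest in CXCL14 replicate 1 and untreated replicates 1 and 2. The rows of Col4a1 and Col4a2 are bright in all 6 libraries.

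The fibrillar chains of collagens I and III were among the most abundant chains in 3 libraries and much lower in the other 3. Col1a1, which supplies most chains of collagen I, measured 110, 7.82 and 9.82 FPKM in CXCL14 replicates 1, 2 and 3 and 117, 96.2 and 9.92 FPKM in untreated replicates 1, 2 and 3. Among the 11516 tested genes it ranked 447, 6315 and 5751 in the CXCL14 libraries and 426, 497 and 5728 in the untreated libraries. Thus CXCL14 replicate 1 lay with untreated replicates 1 and 2, and untreated replicate 3 lay with CXCL14 replicates 2 and 3. The means were 42.4 ± 58.2 FPKM in CXCL14 samples and 74.2 ± 56.6 FPKM in untreated samples (SD, n = 3 each). The log2 fold change was -1.19 with SE 1.24 (limma-trend adjusted p = 0.716). Without CXCL14 replicate 1 it was -2.35 with SE 1.04 (limma-trend adjusted p = 0.201), and over the fits that left out 1 library it ranged between -2.35 and -0.53.

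Col1a2, the partner chain of collagen I, measured 118, 9.06 and 13.6 FPKM in the CXCL14 libraries and 122, 110 and 11.8 FPKM in the untreated libraries. Col3a1, whose product forms collagen III by itself and mixes with collagen I in soft tissue, measured 186, 18.3 and 26.7 FPKM in the CXCL14 libraries and 198, 207 and 19.2 FPKM in the untreated libraries. Both showed the same overlap of groups as Col1a1. Their log2 fold changes were -1.11 (SE 1.19) for Col1a2 and -1.02 (SE 1.16) for Col3a1, with limma-trend adjusted p = 0.723 and 0.736. Without CXCL14 replicate 1 they were -2.20 and -2.02, and over the fits that left out 1 library they ranged between -2.20 and -0.42 for Col1a2 and between -2.13 and -0.39 for Col3a1. In a bulk sample, fewer cells that express these genes and less RNA per cell cannot be told apart.

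Chains of collagen V, which nucleates collagen I fibrils and limits their width, had the same 3 high libraries at lower levels. Col5a1 measured 14.0, 1.79 and 2.46 FPKM in the CXCL14 libraries and 15.3, 13.9 and 1.79 FPKM in the untreated libraries, with a log2 fold change of -0.74 (SE 0.87). Col5a2, which neighbours Col3a1 on chromosome 1, measured 12.4, 1.99 and 3.40 FPKM in the CXCL14 libraries and 13.6, 13.6 and 2.29 FPKM in the untreated libraries, with -0.66 (SE 0.75). Col5a3 had a smaller span, a highest value 4.02 times the lowest against 8.58 times for Col5a1, and a log2 fold change of -0.34 (SE 0.55). None of the 3 passed the test, with limma-trend adjusted p = 0.742, 0.734 and 0.817. Their log2 fold changes without CXCL14 replicate 1 were -1.50, -1.29 and -0.77.

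The fibrillar class also held chains that varied little. Col11a2, a chain of the collagen V and XI family, measured 4.34, 3.17 and 2.48 FPKM in the CXCL14 libraries and 3.80, 2.99 and 3.25 FPKM in the untreated libraries, with a highest value 1.75 times the lowest and a log2 fold change of -0.02 (SE 0.18) that turned to 0.04 under median-ratio scaling. Col27a1 had the same 3 highest libraries as Col1a1, at a span of 1.83 times, and measured between 0.867 and 1.33 FPKM in the CXCL14 libraries and between 0.975 and 1.58 FPKM in the untreated libraries, with -0.19 (SE 0.17). All 8 tested fibrillar chains had negative log2 fold changes in the main comparison, with a median of -0.70, and 0 passed. Col2a1 and Col11a1, which encode some of the chains of cartilage fibrils, and Col24a1 were at 0.0761 FPKM or below in every library and were not tested.

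**Figure D4:**
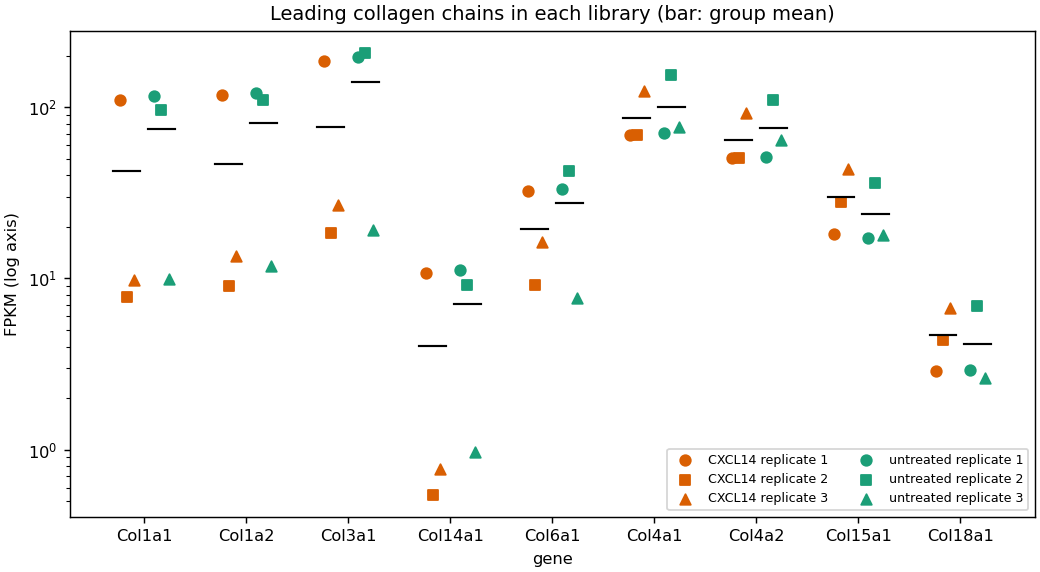
FPKM of 9 leading chains on a log axis, with each library as a point (CXCL14 left, untreated right; circle, square and triangle for replicates 1, 2 and 3) and the group mean as a black bar. Col1a1, Col1a2, Col3a1 and Col14a1 each split into 3 high and 3 low libraries that cut across the groups, while the highest value of Col4a1 is 2.25 times its lowest.

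Among FACIT collagens, Col14a1 had the widest span of the tested chains. Its product binds the surface of collagen I fibrils. It measured 10.8, 0.546 and 0.773 FPKM in the CXCL14 libraries and 11.2, 9.14 and 0.968 FPKM in the untreated libraries, a highest value 20.6 times the lowest. The log2 fold change was -0.97 with SE 0.98 (limma-trend adjusted p = 0.707), and -1.92 with SE 0.80 without CXCL14 replicate 1 (limma-trend adjusted p = 0.180). Col16a1 measured 2.13, 0.526 and 0.618 FPKM in the CXCL14 libraries and 2.18, 1.60 and 0.312 FPKM in the untreated libraries, with -0.16 (SE 0.41). Col20a1 varied little, at 2.15, 1.61 and 1.35 FPKM in the CXCL14 libraries and 2.21, 1.90 and 1.80 FPKM in the untreated libraries, with -0.14 (SE 0.15). Col12a1, a close relative of Col14a1, stayed at 0.868 FPKM or below and was not tested, and was lowest in untreated replicate 3, at 0.0782 FPKM. Leaving out CXCL14 replicate 1 gave log2 fold changes of -0.49 for Col16a1 and -0.26 for Col20a1.

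The main chains of collagen VI had the same 3 highest libraries as the fibrillar ones, over a narrower span. Col6a1 measured 32.5, 9.20 and 16.4 FPKM in the CXCL14 libraries and 33.2, 42.2 and 7.64 FPKM in the untreated libraries. Col6a2, its neighbour on chromosome 10, measured 20.2, 5.87 and 10.5 FPKM in the CXCL14 libraries and 22.7, 27.1 and 5.30 FPKM in the untreated libraries. Col6a3 measured 11.8, 3.19 and 6.03 FPKM in the CXCL14 libraries and 11.7, 17.4 and 2.42 FPKM in the untreated libraries. Each was highest in untreated replicate 2 and lowest in untreated replicate 3, so the full range of the 6 libraries lay within the untreated group. Log2 fold changes were -0.37 (SE 0.68), -0.44 (SE 0.64) and -0.36 (SE 0.68) for Col6a1, Col6a2 and Col6a3, with limma-trend adjusted p between 0.794 and 0.839. They were -0.81, -0.86 and -0.77 without CXCL14 replicate 1.

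The main basement membrane chains were abundant in all 6 libraries. Col4a1, which with Col4a2 forms the most widespread collagen IV molecule, measured 68.7, 68.4 and 124 FPKM in the CXCL14 libraries and 70.5, 154 and 76.3 FPKM in the untreated libraries, and Col4a2 measured 50.3, 50.4 and 92.4 FPKM and 51.4, 111 and 64.5 FPKM. CXCL14 replicate 3 and untreated replicate 2 were high, and the remaining 4 libraries lay close together. Log2 fold changes were -0.17 (SE 0.36) for Col4a1 and -0.21 (SE 0.34) for Col4a2, with limma-trend adjusted p = 0.859 and 0.815. Both turned positive without untreated replicate 2, at 0.19 and 0.10. Col4a5, a chain of other collagen IV molecules, measured 1.32, 0.861 and 1.05 FPKM in the CXCL14 libraries and 1.22, 1.67 and 0.384 FPKM in the untreated libraries, with a log2 fold change of 0.04 (SE 0.26).

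Col15a1 and Col18a1 encode the collagens whose C-terminal fragments are known as restin and endostatin. Col15a1 measured 18.3, 28.1 and 43.7 FPKM in the CXCL14 libraries and 17.3, 36.1 and 17.8 FPKM in the untreated libraries, with the largest positive log2 fold change among the tested chains, 0.32 with SE 0.38 (limma-trend adjusted p = 0.743). Col18a1 measured 2.89, 4.39 and 6.69 FPKM in the CXCL14 libraries and 2.91, 6.91 and 2.62 FPKM in the untreated libraries, with 0.17 (SE 0.36). Untreated replicate 2 lay among the CXCL14 libraries for Col15a1 and was the highest of all 6 for Col18a1, so that the groups overlapped for both. Without CXCL14 replicate 1 the values were 0.63 (SE 0.37) and 0.42 (SE 0.38), with limma-trend adjusted p = 0.302 and 0.487.

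Of the remaining classes 2 chains were tested. Col8a1, a network collagen of the vessel wall, measured 1.84, 1.70 and 2.72 FPKM in the CXCL14 libraries and 2.06, 3.90 and 1.11 FPKM in the untreated libraries, with a log2 fold change of -0.05 (SE 0.31) that turned to 0.01 under median-ratio scaling. Col28a1, known from peripheral nerve, measured 0.897, 1.65 and 2.83 FPKM in the CXCL14 libraries and 0.868, 1.63 and 1.32 FPKM in the untreated libraries, with 0.25 (SE 0.28). Neither passed the test, with limma-trend adjusted p = 0.956 and 0.727. The log2 fold change of Col28a1 was 0.50 without CXCL14 replicate 1.

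The other 22 chains did not reach the filter, with mean levels between 0.00780 and 0.935 FPKM over the 6 libraries. Of these, 11 had fewer than 10 recovered reads in every library, and 8 were listed at 0 in at least 1 library. They comprised Col2a1, Col11a1 and Col24a1 of the fibrillar class, Col4a3, Col4a4, Col4a6 and Col7a1 of the basement membrane, Col9a1, Col9a2, Col9a3, Col12a1, Col19a1 and Col22a1 of the FACIT class, Col6a4, Col6a5 and Col6a6, Col8a2, the transmembrane chains Col13a1, Col17a1, Col23a1 and Col25a1, and Col26a1. Col6a6 had the same order of libraries as Col6a3, at 0.834, 0.0974 and 0.172 FPKM in the CXCL14 libraries and 0.775, 1.05 and 0.0561 FPKM in the untreated libraries.

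Col6a4 and Col23a1, singled out after their values were seen, were the 2 of 43 chains (4.65%) whose groups did not overlap, beside 11.0% of all 17464 genes (4.26% higher and 6.79% lower in CXCL14 samples). Col6a4, a collagen VI chain related to Col6a3, measured 0.0904, 0.380 and 0.344 FPKM in the CXCL14 libraries and 0, 0.0250 and 0.0459 FPKM in the untreated libraries. This rested on 11, 49 and 46 recovered reads with CXCL14 and 0, 3 and 6 without. Col23a1, a transmembrane collagen, measured 0.537, 0.497 and 0.342 FPKM in the CXCL14 libraries and 0.726, 0.675 and 0.650 FPKM in the untreated libraries. In the fit with no filter on low values, log2 fold changes were 0.31 for Col6a4 and -0.21 for Col23a1, each with limma-trend adjusted p = 0.661, and 0 chains were called, beside 0% of all genes. These 2 were the chains with an unadjusted p under 0.05 in that fit, beside 6.49% of all genes.

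Ratios between chains that share a molecule or a fibre varied less than the levels. Col1a1 over Col1a2 was 0.929, 0.864 and 0.722 in the CXCL14 libraries and 0.957, 0.877 and 0.840 in the untreated libraries. Col4a1 over Col4a2, whose promoter windows are shown above, was 1.37, 1.36 and 1.34 in the CXCL14 libraries and 1.37, 1.39 and 1.18 in the untreated libraries. Col6a1 over Col6a2 was 1.61, 1.57 and 1.55 in the CXCL14 libraries and 1.46, 1.56 and 1.44 in the untreated libraries. Thus the highest ratio was 1.33, 1.18 and 1.12 times the lowest for these pairs, while Col1a1, Col4a1 and Col6a1 themselves spanned 14.9, 2.25 and 5.52 times. For Col3a1 over Col1a1, Col5a1 over Col5a2 and Col6a3 over Col6a1 the highest ratio was 1.60, 1.56 and 1.31 times the lowest. Col3a1 over Col1a1 was 1.70, 2.34 and 2.72 in the CXCL14 libraries and 1.70, 2.15 and 1.94 in the untreated libraries, and it was lowest in the libraries numbered 1. Of 6 ratios compared, including Col5a1 over Col5a2 and Col6a3 over Col6a1, none passed (exact two-sided permutation p between 0.2 and 1, adjusted p = 1 for each). With 3 samples against 3 the smallest p this test allows is 0.1, so no ratio could have passed at 0.05. Differences of the mean log2 ratio, CXCL14 minus untreated, lay between -0.10 and 0.21.

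Enzymes and chaperones that modify and fold collagen chains summed to between 467 and 548 FPKM in CXCL14 libraries and between 490 and 580 FPKM in untreated libraries. P4hb and Ppib made up most of each sum. For 6 of the 17 tested genes the 3 lowest values were those of CXCL14 replicates 2 and 3 and untreated replicate 3, beside 17.4% of all tested genes. Of 17 tested genes of this list 0 passed, 6 had positive and 11 negative log2 fold changes, and the median was -0.04, beside -0.06 over all genes. Serpinh1, the collagen-specific chaperone HSP47, measured 71.5, 40.2 and 70.5 FPKM in the CXCL14 libraries and 71.1, 91.4 and 53.5 FPKM in the untreated libraries. P4ha1, a subunit of prolyl 4-hydroxylase, measured 12.6, 13.8 and 13.9 FPKM in the CXCL14 libraries and 12.2, 10.8 and 10.6 FPKM in the untreated libraries. All 3 CXCL14 libraries lay above all 3 untreated ones, as for 4.74% of tested genes, with a log2 fold change of 0.24 and SE 0.10 that did not pass (limma-trend adjusted p = 0.573). P3h2, a prolyl 3-hydroxylase that acts on collagen IV, had 0.60 (SE 0.42), and P4ha2 had -0.31 (SE 0.23), with limma-trend adjusted p = 0.620 and 0.627. Log2 fold changes of 1.00 and -0.50 were found without CXCL14 replicate 1.

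Genes that act on secreted collagen shared the low libraries of the fibrillar chains. Of 10 tested genes of propeptide cleavage and cross-linking, 9 had their 3 lowest values in CXCL14 replicates 2 and 3 and untreated replicate 3, beside 17.4% of all tested genes. Adamts2 and Lox, among these 9, were below 1 FPKM in those 3 libraries, so the filter itself fixed their place in this count. Loxl1, a lysyl oxidase that cross-links matrix fibres, measured 19.7, 0.890 and 1.30 FPKM in the CXCL14 libraries and 19.5, 11.9 and 1.47 FPKM in the untreated libraries. Pcolce2, which enhances propeptide removal, measured 13.4, 0.585 and 0.877 FPKM in the CXCL14 libraries and 13.2, 7.61 and 1.25 FPKM in the untreated libraries. Of the 10 genes 1 had a positive log2 fold change and 0 passed, with a median of -0.35. The positive one was Tll1, a protease of the BMP1 family, with 0.51 (SE 0.36). Loxl3 had -0.33 (SE 0.33) and Pcolce2 -0.89 (SE 1.00), with limma-trend adjusted p between 0.623 and 0.731 for these 3. In the fit without CXCL14 replicate 1 the values were 0.85 for Tll1, -0.60 for Loxl3 and -1.91 for Pcolce2.

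Of 13 tested fibril-associated matrix proteins 0 passed, with 11 negative log2 fold changes and a median of -0.56. Lum, which encodes the small proteoglycan lumican, measured 29.0, 2.31 and 2.59 FPKM in the CXCL14 libraries and 32.7, 27.4 and 3.08 FPKM in the untreated libraries, with -1.15 (SE 1.10). Prelp, another small leucine-rich proteoglycan, measured 8.999, 12.6 and 23.5 FPKM in the CXCL14 libraries and 8.60, 17.4 and 7.32 FPKM in the untreated libraries, with 0.39 (SE 0.41), and Postn had -0.60 (SE 0.66). For these 3 the fit without CXCL14 replicate 1 gave -2.19, 0.68 and -0.99. Of 11 basement membrane partners 0 passed, with 5 positive and 6 negative log2 fold changes and a median of -0.01. Of these, 9 had their 2 highest values in CXCL14 replicate 3 and untreated replicate 2, as Col4a1 did, beside the 1725 of 11516 tested genes given above. Log2 fold changes were 0.29 (SE 0.28) for Agrn, which encodes agrin, and 0.24 (SE 0.31) for Lama5 and -0.56 (SE 0.69) for Lama2, both laminin chains, and without CXCL14 replicate 1 they were 0.52, 0.42 and -1.15.

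Of 9 tested collagen receptors 0 passed, with 8 negative log2 fold changes and a median of -0.08. Itga10, an integrin chain that binds collagen, was above all untreated libraries in all 3 CXCL14 libraries, as were 4.74% of tested genes. It measured 2.10, 2.23 and 2.16 FPKM with CXCL14 and 1.89, 1.95 and 1.66 FPKM without. Its log2 fold change was 0.16 with SE 0.11 and did not pass (limma-trend adjusted p = 0.621). Mrc2, which takes up collagen fragments, had -0.46 (SE 0.61) and Lair1, an inhibitory collagen receptor of leukocytes, -0.27 (SE 0.35). Of 4 tested collagen-degrading proteases 0 passed, with log2 fold changes of -0.92 (SE 1.10) for Mmp2, -0.64 (SE 0.62) for Ctsk and 0.19 (SE 0.40) for Mmp9. Without CXCL14 replicate 1 these were -1.91, -1.23 and 0.08, those of Mrc2 and Lair1 were -1.01 and -0.64, and 0 genes of the 6 lists passed. The transcript of Cxcl14 itself measured 2.27, 2.14 and 2.75 FPKM in the CXCL14 libraries and 2.61, 0.934 and 0.214 FPKM in the untreated libraries, with 0.73 (SE 0.37, limma-trend adjusted p = 0.574).

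Markers of fibroblasts stood beside the fibrillar chains. Summed over 10 fibroblast markers, FPKM was 553, 53.7 and 58.0 in CXCL14 replicates 1, 2 and 3 and 595, 347 and 72.4 in untreated replicates 1, 2 and 3, and all 10 markers had their 3 lowest values in CXCL14 replicates 2 and 3 and untreated replicate 3. The list shares Dcn, Lum and Dpt with the fibril-associated proteins, and none of its members was at 0 in any library. Pdgfra, a defining surface receptor of these cells, measured 3.35, 0.421 and 0.448 FPKM in the CXCL14 libraries and 3.69, 3.03 and 0.335 FPKM in the untreated libraries. All 8 macrophage markers had the same 3 lowest libraries, with sums of 305, 46.0 and 73.3 FPKM in the CXCL14 libraries and 305, 225 and 88.7 FPKM in the untreated libraries. So did 4 of 4 tested skeletal muscle markers and 4 of 5 tested markers of Schwann cells and nerve, beside 17.4% of all tested genes. Pdgfra, Fbln1 and the macrophage marker Cd163 were below 1 FPKM in those 3 libraries, so the filter itself fixed their order. The part of these cell types in the collagen values was not tested.

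Blood endothelial and pericyte markers did not have that order. Over 12 endothelial markers the sum was 547, 1068 and 1721 FPKM in the CXCL14 libraries and 525, 1103 and 840 FPKM in the untreated libraries, and over 10 pericyte and smooth muscle markers 53.8, 123 and 204 FPKM and 50.4, 197 and 115 FPKM. For 8 of 12 endothelial and 7 of 8 tested pericyte and smooth muscle markers the 2 highest libraries were CXCL14 replicate 3 and untreated replicate 2, as for 1725 of 11516 tested genes, and these are the libraries highest in Col4a1, Col4a2, Col15a1 and Col18a1. The same 2 libraries were highest for 5 of 10 tested white adipocyte markers and 4 of 9 tested luminal epithelium markers. All 10 tested adipocyte markers were highest in CXCL14 replicate 3. The part of any of these cell types in the chain values was not tested. Muscle, cartilage and bone markers were low: 8 skeletal muscle markers summed to between 8.80 and 29.7 FPKM in CXCL14 libraries and between 15.3 and 34.8 FPKM in untreated libraries, and 6 cartilage and bone markers to between 4.43 and 6.05 FPKM and between 2.96 and 9.23 FPKM, with Acan, the main cartilage proteoglycan, and Bglap, which encodes osteocalcin, listed at 0 in some libraries.

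**Figure D5:**
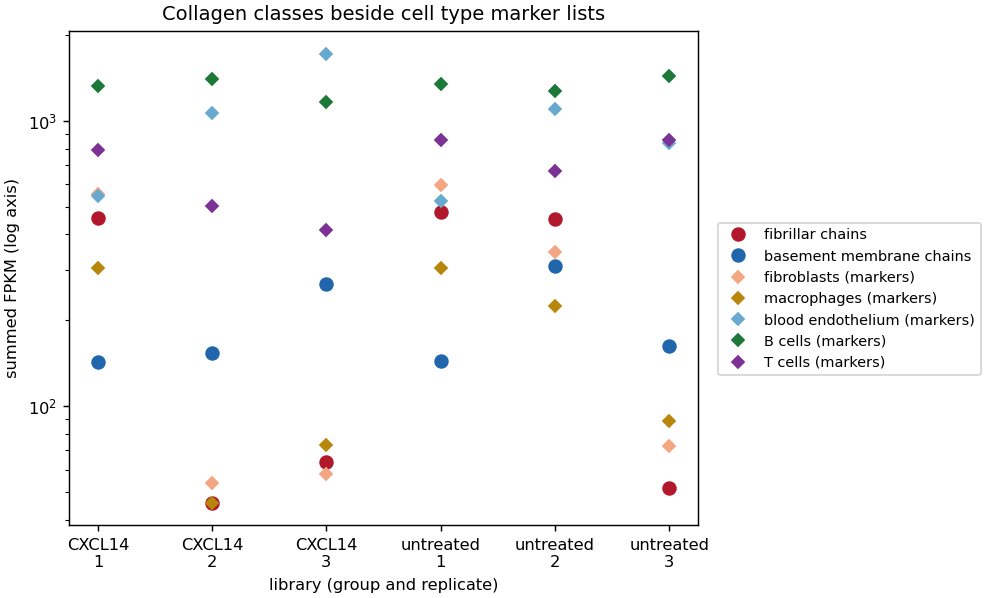
Summed FPKM on a log axis of fibrillar and basement membrane chains (circles) and of the marker lists of 5 cell types (diamonds) in each library, CXCL14 left and untreated right. Fibrillar chains, fibroblast markers and macrophage markers are low in CXCL14 replicates 2 and 3 and untreated replicate 3, whereas endothelial markers are lowest in the libraries numbered 1 and B cell markers lie between 1165 and 1434 FPKM throughout.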

How the data were processed

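RNA was sequenced from 6 mammary gland samples, 3 given CXCL14 and 3 untreated; per the labels, 2 µg of RNA per sample went into NEBNext Ultra libraries. The authors deposited 1 FPKM value per gene symbol and library, already scaled for gene length and library size. Listed without roles in the submitters' processing notes are the build mm8, HTSeq 0.6.0, HISAT2 2 and Bowtie2 2.2.3. The annotation, gene lengths and strand setting were not stated, so reads of overlapping or near-identical genes may be shared. Because the reference tables are of GRCm38.p6, coordinates are given only with its promoter sequences.

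Values were taken as log2(FPKM + 1), a scale that understates changes of low genes, for genes reaching 1 FPKM in 3 or more libraries. Groups were compared with limma (version 3.58.1, run in R 4.3.3) with a variance trend, and p-values were adjusted over 11516 genes by the Benjamini-Hochberg method. Calls needed an adjusted p below 0.05. SDs are over samples. Within a gene, FPKM values were whole multiples of 1 step, which gave reads, up to a common factor per gene, for 17461 of 17464 genes within 0.004 reads. They served for depth and for voom. Shares and ratios were compared by exact permutation over samples. The code was tested on simulated data.

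Chains, lists and tests were chosen with earlier results of these data known. By rule, values are given for the most abundant tested chains of each class, for the highest and lowest fold change in the 4 main classes, for the 3 genes per pathway list with the smallest p, and for Cxcl14. Values of Col4a5, Col5a3, Col27a1, Col6a6, Col12a1, Loxl1, Serpinh1, Pdgfra, Fabp4 and Adipoq fall outside that rule and were chosen after they were seen. Alternatives were pseudocounts of 0.1 and 0.5, no filter, a filter at FPKM 5, median-ratio scaling, no variance trend, voom, the replicate number as a block and leaving out libraries.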

Additional observations from a re-analysis of the deposited data

How the results depend on the processing

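In all 15 alternative fits 0 collagen chains were called. The median log2 fold change of the tested chains ranged between -0.54 and -0.02 when 1 library was left out. Under the other settings that kept the same 21 chains it ranged between -0.36 and -0.14. It was -0.44 over the 13 chains left by the filter at FPKM 5, and -0.03 over all 43 chains with no filter. Over all genes the count of calls ranged between 0 and 597 with 1 library left out, the 597 being without CXCL14 replicate 1, and was 15 without both libraries numbered 1. Same-numbered samples did not deviate together in every pair (correlations of 0.69, -0.30 and 0.06). Such correlations, of deviations from means of 3 samples, cannot decide whether the numbers pair the samples. With a replicate block the median stayed at -0.21 and 0 genes were called.

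Of 18 named chains 9 kept their direction in every fit, among them Col1a1, Col1a2, Col3a1, Col5a1, Col5a2 and Col14a1. With 1 library left out, log2 fold changes ranged between -0.19 and 0.12 for Col11a2, -0.45 and 0.19 for Col4a1, -0.50 and 0.10 for Col4a2, -0.0745 and 0.53 for Col18a1, -0.54 and 0.10 for Col16a1, -1.09 and 0.0746 for Col6a1, -1.08 and 0.14 for Col6a3, -0.34 and 0.26 for Col8a1, -0.0062 and 0.50 for Col28a1, and -0.27 and 0.50 for Mmp9. Median-ratio scaling turned Col11a2 to 0.0402 and Col8a1 to 0.0121. The difference in share, in percentage points, ranged between -28.4 and -2.35 for fibrillar chains, 1.32 and 28.1 for basement membrane chains, -0.50 and 0.18 for FACIT chains and between -0.91 and 0.84 for collagen VI, which was -2.42 without Col1a1, Col1a2 and Col3a1. Differences in log2 ratio ranged between -0.17 and 0.0099 for Col1a1 over Col1a2, -0.26 and 0.0584 for Col5a1 over Col5a2, -0.0277 and 0.0892 for Col4a1 over Col4a2, and -0.0843 and 0.11 for Col6a3 over Col6a1, the last being -0.0145 without both libraries numbered 1. The causes were not tested. Of the 22 untested chains, 11 had fewer than 10 reads in every library, and whether depth or low expression set this was not tested. The others missed the FPKM filter with more reads, such as Col12a1 with 163 in untreated replicate 2.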
